A study of Mus musculus with 21 samples.

Results

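The mRNA of p53 (Trp53) and of 9 of its target genes was followed in mouse embryonic stem cells grown in 3 media. The genes are Trp53, Cdkn1a, Mdm2, Ccng1, Bax, Bbc3, Trp53inp1, Zmat3, Phlda3 and Sesn1. They were chosen by symbol, as the rows whose mouse Ensembl ID carries 1 of these names, and make up 10 of the 31053 gene IDs counted. All 10 passed the filter on low counts, which left 10643 genes for testing. All libraries came from E14Tg2a, a male embryonic stem cell line of 129 background that carries a GFPd2 knock-in on 1 allele of Rex1, so each group rests on the same single line. The labels place the 21 libraries in 7 groups of 3, named 2i+LIF PO, 2i+LIF LP, CH+LIF LP, LIF LP, 2i+LIF HP, CH+LIF HP and LIF HP. LIF is leukaemia inhibitory factor, CH is the GSK3 inhibitor CHIR99021, PD is the MEK inhibitor PD0325901, and 2i names the pair of inhibitors. The protocol given with every sample is the same: a week in NDiff227 medium with CHIR99021 and PD0325901, then drug given and withdrawn in turn at each passage. The design text mentions zero passage and culture for 1 and 2 months, but no label says which of these PO, LP and HP stand for, so the groups are named here as labelled.

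p53 is a transcription factor whose protein is kept low by the ubiquitin ligase Mdm2 and accumulates after DNA damage, oncogene activity or other stress. It binds DNA as a tetramer and raises genes that halt the cell cycle, trigger apoptosis, repair damage or, as with Mdm2, feed back on p53 itself. In embryonic stem cells p53 protein is present without added damage, and the pathway is known for limiting the survival and self-renewal of damaged cells. Its activity is set largely on the protein, and only mRNA was measured in these libraries.

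Promoter sequences show where a p53 half-site, the 10-base unit of which a full p53 site holds a pair, lies beside the starts of these genes. RefSeq promoters of GRCm38.p6, 250 bases before and 50 from the start on, were found for 8 of the 10 genes (12 promoters in all). A half-site of the p53 consensus, which reads the same on both strands, occurred in 6 of the 12, against 8.36% of all 32851 promoters of that length. A pair of half-sites with a spacer of up to 13 bases occurred in 24 of the 32851 promoters (0.0731%), and among these genes only at the upstream of the 2 Cdkn1a starts, which lie 2790 bases apart. The stretches below are shown because they carry these matches. Capitals mark the half-sites, each line runs 5′ to 3′ on the gene's strand, and the first capital lies 75 bases before the start in Trp53, 73 and, for the second half-site, 51 in Cdkn1a, 186 in Mdm2, 185 in Ccng1, 201 in Bax and 173 in Sesn1.
Trp53, chr11:69580264-69580313, plus strand: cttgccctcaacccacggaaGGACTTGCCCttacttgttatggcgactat
Cdkn1a, chr17:29090886-29090957, plus strand: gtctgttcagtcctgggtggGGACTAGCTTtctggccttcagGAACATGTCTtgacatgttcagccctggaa
Mdm2, chr10:117710915-117710964, minus strand: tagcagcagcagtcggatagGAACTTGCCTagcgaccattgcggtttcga
Ccng1, chr11:40755442-40755491, minus strand: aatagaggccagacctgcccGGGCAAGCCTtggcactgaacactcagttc
Bax, chr7:45467070-45467119, minus strand: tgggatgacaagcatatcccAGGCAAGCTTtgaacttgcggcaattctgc
Sesn1, chr10:41887246-41887295, plus strand: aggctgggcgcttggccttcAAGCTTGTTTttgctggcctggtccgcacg
These matches describe the letters alone, and binding was not measured. Only exact fits to the consensus were marked. The bases right after the second half-site of Cdkn1a come near the consensus but hold a mismatch, so the marked pair need not be a bound site. The promoter windows of Phlda3 and Bbc3 held no match. Of 36 promoters of 31 other p53 targets used below, 7 (19.4%) held a half-site.

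Gene counts per library ranged from 1132126 to 3783043, with a median of 1763531. Levels are given in CPM, counts per 1e6 counts of the library after scaling with edgeR's TMM factors. A log2 fold change compares the fitted group levels, and ± after it is its standard error. A call is an adjusted p under 0.05 in edgeR's quasi-likelihood test. The PO libraries came from another sequencing run than the other 18 by their file names, so PO and run cannot be told apart. A pair of libraries stood apart. 2i+LIF PO replicate 1 had 39.1% of its counts in mitochondrial genes and 2i+LIF LP replicate 1 had 31.7% in the single gene Gm42418, and their mean correlations with their replicates were 0.83 and 0.79 against 0.86 to 0.94 in the others. Genes known to answer the inhibitors, looked up after the values were seen, did not follow every label. Dusp6 and Spry4, which MEK and ERK signalling raises, were at 0 to 1.23 CPM and at 0 in the 3 libraries with the label LIF HP, a medium named without PD. In the libraries labelled 2i+LIF LP, Dusp6 ran from 0.701 to 34.4 CPM. Sp5 and Axin2, which Wnt signalling and GSK3 inhibition raise, had means of 1.03 and 5.16 CPM in CH+LIF LP and of 24.5 and 9.06 CPM in LIF HP, a medium named without CH. The comparisons of media below are comparisons of these labels. All 7 pluripotency markers had counts in all 21 libraries, and their summed level ran from 1270 to 3230 CPM. None of 6 primitive endoderm markers passed the filter (summed 0.484 to 24.5 CPM). Of 6 fibroblast markers 2 passed it (summed 4.79 to 45.7 CPM), and of 6 neural progenitor markers 4 did (summed 35.5 to 253 CPM). In RNA from whole cultures, fewer cells of a type and less RNA per cell cannot be told apart. No label says whether replicates were separate cultures, so p-values measure the spread between these libraries, which may be technical.

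Per kilobase of exon, Bax and Cdkn1a were the most abundant of the 10 genes, at 108 and 71.8 CPM per kilobase on average over the 21 libraries. Phlda3 (30.7), Ccng1 (27.6), Mdm2 (19.2), Trp53 (13.4) and Trp53inp1 (13.0) lay between, and Zmat3 (5.03), Bbc3 (4.49) and Sesn1 (2.00) were lowest. Bbc3 and Sesn1 rested on 466 and 322 counts over all libraries, against 11129 for Cdkn1a, so their group levels are the least precise.

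**Figure D1:**
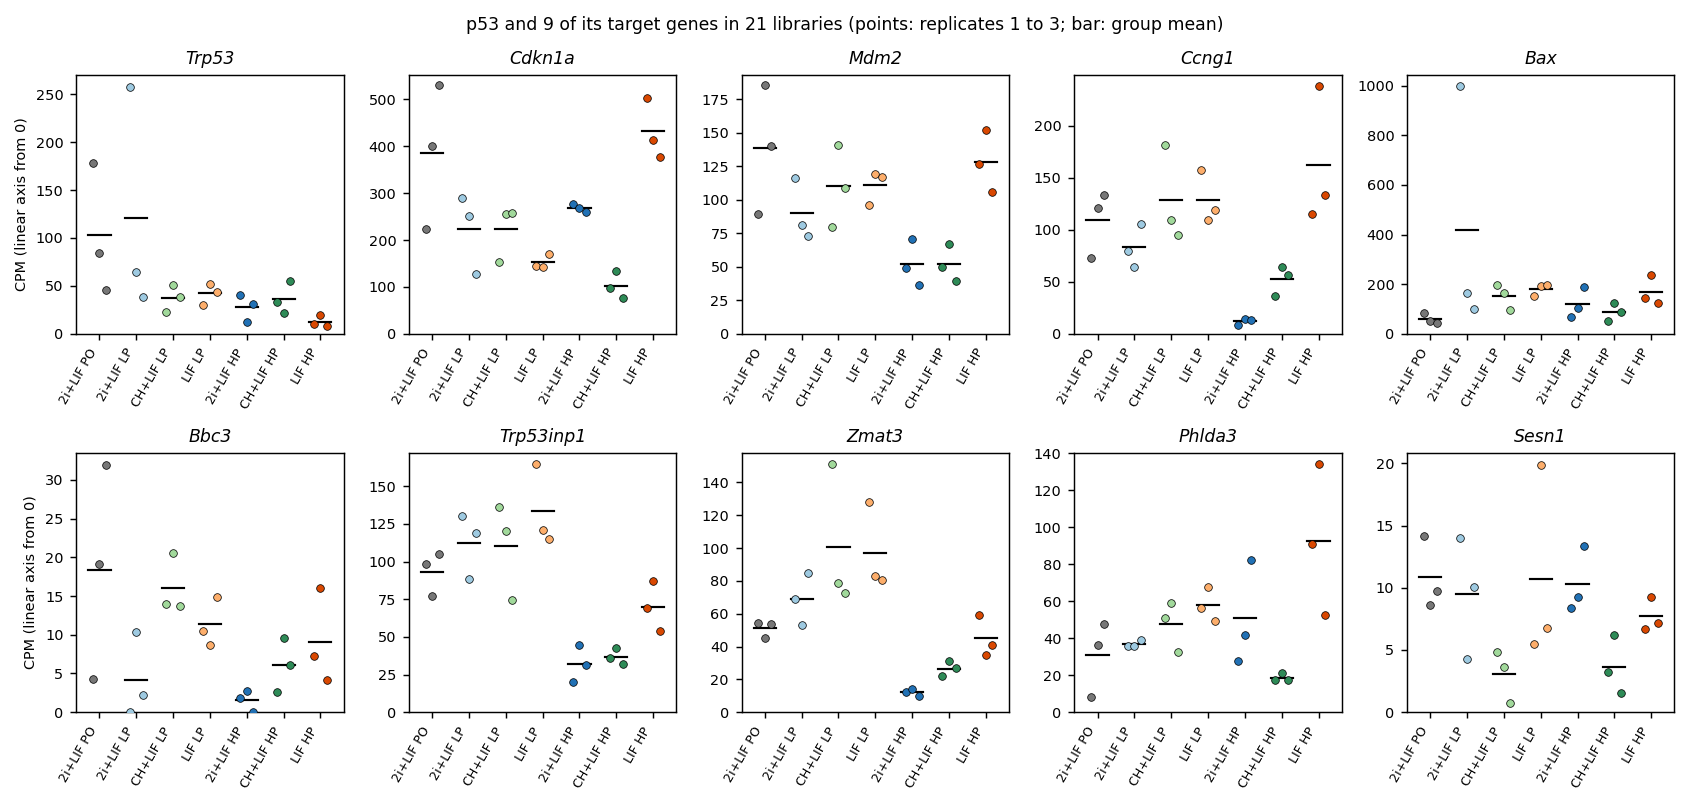
CPM of each of the 10 genes (linear axis from 0) by group on the horizontal axis, with a point for each library and a bar at the mean of 3. Ccng1 and Zmat3 sit near the bottom of their panels in 2i+LIF HP (8.37 to 14.2 and 9.58 to 14.2 CPM), where Cdkn1a stayed between 259 and 277 CPM, and 1 library of 2i+LIF LP stands far above the rest for Bax and Trp53.

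Trp53 itself (ENSMUSG00000059552, chromosome 11, 69580359 to 69591873, plus strand, GRCm38) had its lowest mRNA level in LIF HP, with 10.3, 19.7 and 8.24 CPM. The 3 libraries of LIF LP had 30.3, 52.5 and 43.8 CPM, and those of CH+LIF HP 33.1, 21.5 and 54.8 CPM. All LIF HP values lay under all values of these other groups, but overlapped the 40.4, 12.5 and 30.7 CPM of 2i+LIF HP. At the upper end, 2i+LIF PO held 178, 84.7 and 45.9 CPM, and 2i+LIF LP held 258, 64.6 and 38.6 CPM. In both of those groups replicate 1, the library that stood apart, was the highest of 3. CH+LIF LP lay between, at 22.8, 51.4 and 38.0 CPM. In the order of group means every pair of neighbours overlapped. A processed pseudogene, Trp53-ps, is annotated in GENCODE M21 and was not analysed here. Reads that fit both copies would have been left out of uniquely aligned counts.

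Mdm2, the ligase that marks p53 for degradation and is itself raised by p53 (ENSMUSG00000020184, chromosome 10, 117688875 to 117710758, minus strand), split the groups into a higher and a lower set. The 2i+LIF HP libraries held 49.3, 70.9 and 36.4 CPM, and those of CH+LIF HP 50.0, 66.8 and 39.6 CPM. LIF HP had 128 ± 23.0 CPM (SD, n = 3), and its lowest library, at 106 CPM, lay above every library of the other HP groups. The 3 LP groups had means from 90.2 to 111 CPM, and 2i+LIF PO had 138 ± 48.3 CPM (SD, n = 3). Every library of both lower groups lay under every LP library.

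Cdkn1a, which encodes the cyclin-dependent kinase inhibitor p21 (ENSMUSG00000023067, chromosome 17, 29090976 to 29100727, plus strand), was highest in LIF HP and lowest in CH+LIF HP. The LIF HP libraries had 503, 414 and 378 CPM, and the CH+LIF HP libraries 98.6, 135 and 75.4 CPM. Between them, 2i+LIF HP held 277, 268 and 259 CPM, a spread of 8.88 CPM (SD, n = 3). The HP groups therefore lay in 3 levels with no overlap. At LP the groups were closer together, at 223 ± 84.6 CPM in 2i+LIF, 223 ± 59.5 in CH+LIF (SD, n = 3 each) and at 171 CPM or less in the 3 libraries of LIF. In 2i+LIF PO it had 224, 401 and 530 CPM.

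Ccng1, cyclin G1, a target that recruits a phosphatase to Mdm2 (ENSMUSG00000020326, chromosome 11, 40748552 to 40755311, minus strand), had the widest range of group means among these genes, 13.6-fold. In 2i+LIF HP it had 8.37, 14.2 and 13.4 CPM, below every other library of the series. CH+LIF HP followed with 36.3, 64.4 and 57.1 CPM, and LIF HP stood highest with 115, 238 and 134 CPM. Again the HP groups formed 3 levels with no overlap, but 2i+LIF, which lay in the middle for Cdkn1a, was here the lowest. At LP the means were 83.6 ± 21.1 in 2i+LIF, 129 ± 46.4 in CH+LIF and 129 ± 25.5 CPM in LIF (SD, n = 3 each).

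Trp53inp1, a nuclear stress protein that promotes p53 phosphorylation and autophagy (ENSMUSG00000028211, chromosome 4, 11156431 to 11174379), and Zmat3, an RNA-binding zinc finger protein and direct p53 target (ENSMUSG00000027663, chromosome 3, 32334792 to 32366014), followed the pattern of Ccng1 in part. Trp53inp1 had 20.0, 44.7 and 31.6 CPM in 2i+LIF HP and 35.7, 42.5 and 32.0 CPM in CH+LIF HP. Both groups lay under LIF HP (69.1, 86.8 and 53.6 CPM), and all LP libraries stood at 74.4 CPM or above. Zmat3 had 12.5, 14.2 and 9.58 CPM in 2i+LIF HP. The CH+LIF HP libraries held 22.1, 31.0 and 26.7 CPM, and those of LIF HP 59.3, 35.1 and 41.2 CPM. Its HP groups did not overlap and stood in the order 2i+LIF, CH+LIF, LIF, as those of Ccng1 did. The LP means of Zmat3 were 69.0 ± 15.8, 101 ± 43.6 and 97.4 ± 26.8 CPM in 2i+LIF, CH+LIF and LIF (SD, n = 3 each).

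Of the apoptosis genes, Bax, the pore-forming BCL2 family protein (ENSMUSG00000003873, chromosome 7, 45461697 to 45466898), turned on 1 library. In 2i+LIF LP it had 997, 163 and 100 CPM, the first value in the library where Gm42418 took 31.7% of counts. Elsewhere it ran from 44.1 CPM in 2i+LIF PO to 237 CPM in LIF HP. The annotated gene Gm45808 overlaps Bax, and without a stated strand setting reads of the pair cannot be assigned with certainty. Bbc3, which encodes the BH3-only protein PUMA (ENSMUSG00000002083, chromosome 7, 16308393 to 16318205), was scarce. It had 4, 5 and 0 counts in 2i+LIF HP and 0, 24 and 4 in 2i+LIF LP, against 8, 73 and 128 in 2i+LIF PO. A count of 0 allows up to 3 counts, counting error alone. CH+LIF LP had the highest mean of the LP and HP groups, at 16.1 ± 3.88 CPM (SD, n = 3).

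Phlda3, which represses Akt at the membrane (ENSMUSG00000041801, chromosome 1, 135766119 to 135769136), was low and even in CH+LIF HP (17.5, 21.0 and 17.5 CPM) and high in LIF HP (91.2, 134 and 52.5 CPM). The 2i+LIF HP libraries spread from 27.9 to 82.4 CPM and overlapped LIF HP. Sesn1, a sestrin that restrains mTORC1 signalling (ENSMUSG00000038332, chromosome 10, 41809935 to 41908424), was at 19.9 CPM or less in every library. Its group means ran from 3.08 ± 2.10 CPM in CH+LIF LP to 10.9 ± 2.98 CPM in 2i+LIF PO (SD, n = 3 each).

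Differences among the 6 LP and HP groups, which share a sequencing run, passed edgeR's joint test for 7 of the 10 genes, where 13.1% of all tested genes did. These were Trp53, Cdkn1a, Mdm2, Ccng1, Trp53inp1, Zmat3 and Phlda3. Adjusted p was 1.04e-05 for Ccng1 and 1.11e-05 for Zmat3 in edgeR, the lowest of the 10. Trp53inp1 followed at 0.000253 and Cdkn1a at 0.00394. Trp53 had an edgeR adjusted p of 0.00808, but 0.096 without 2i+LIF LP replicate 1. Mdm2 (0.0249) and Phlda3 (0.0240) were each lost in 5 of the 21 fits that left out 1 library, with edgeR adjusted p up to 0.0689 and 0.115. Bax (0.0561), Bbc3 (0.103) and Sesn1 (0.202) did not pass edgeR's test. With 2i+LIF PO added, 9 of 10 passed, where 22.6% of all genes did, and Sesn1 (edgeR adjusted p = 0.161) was the exception. Among the 9, Bbc3 (edgeR adjusted p = 0.0432) was lost in 16 of 21 fits without 1 library, with an edgeR adjusted p up to 0.102, and Phlda3 without LIF HP replicate 2 (0.0771). Leaving out 1 library moved the count for the 6 groups from 7 to between 5 and 9. It was 5 without CH+LIF HP replicate 1, CH+LIF HP replicate 3 or LIF HP replicate 2.

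**Figure D2:**
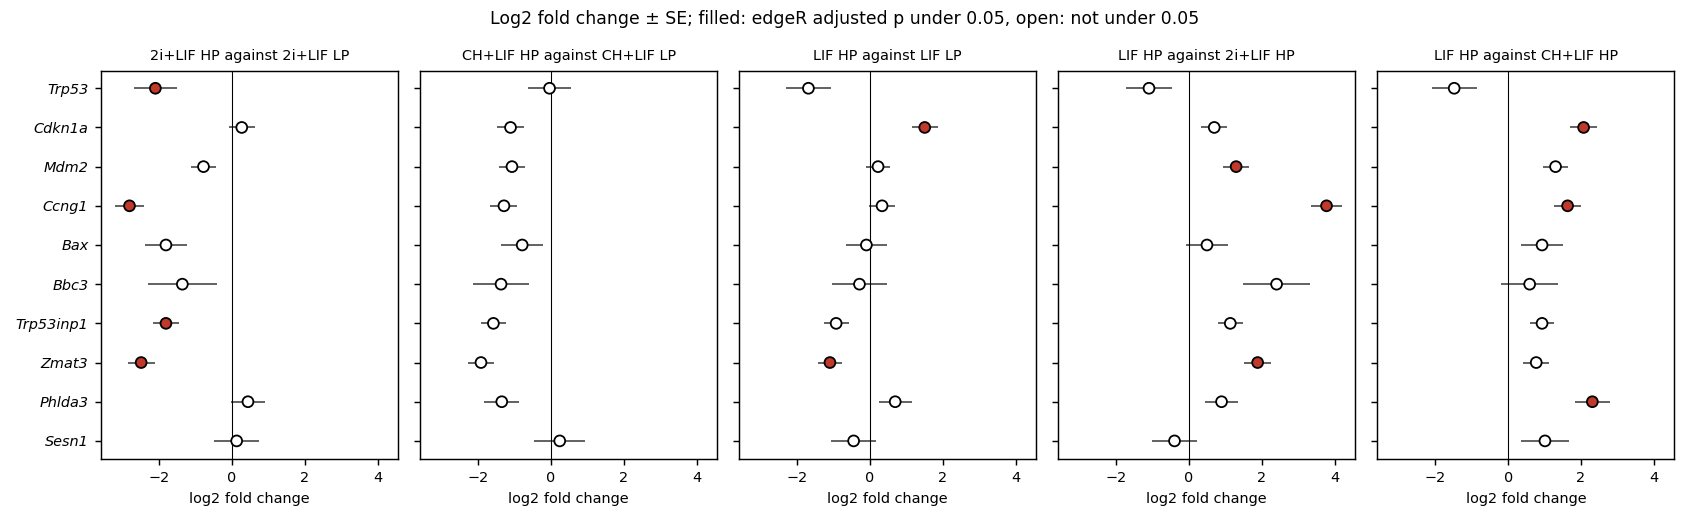
Log2 fold change (points, with ± 1 standard error) of the 10 genes in 5 comparisons, with filled points for an edgeR adjusted p under 0.05 and open points for the rest. Ccng1 and Zmat3 lie left of 0 in 2i+LIF HP against 2i+LIF LP (-2.81 and -2.49) and right of 0 in LIF HP against 2i+LIF HP (3.77 and 1.88).

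Between media at LP, no member passed in any of the 3 comparisons. This was 0 of 30 tests in edgeR, where 0.179% of all gene tests in these comparisons passed. At an unadjusted p under 0.05 in edgeR, 4 members differed between CH+LIF and 2i+LIF, 2 between LIF and 2i+LIF, and 1 between LIF and CH+LIF. The shares of all genes at that threshold were 8.93%, 11.9% and 4.71%, and at the adjusted one 0%, 0.489% and 0.0470%. DESeq2 called 0 as well, and edgeR without the filter on low counts called 3. The lowest unadjusted p in edgeR was that of Trp53 at LP in CH+LIF against 2i+LIF, 0.00761 (adjusted p = 0.434), and 1 of the 3 libraries of 2i+LIF LP was far above the others for that gene. Ccng1 had a log2 fold change of 0.00 ± 0.36 between LIF LP and CH+LIF LP, and Mdm2 one of 0.01 ± 0.34.

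Between media at HP, 8 of 30 member tests passed, where 2.42% of all gene tests did. LIF HP against 2i+LIF HP gave 3 calls, all higher in LIF HP, where 3.78% of all genes were called and 2.10% were called higher. Ccng1 was higher by 3.77 ± 0.42 on the log2 scale (edgeR adjusted p = 1.84e-05). Zmat3 was higher by 1.88 ± 0.37 (edgeR adjusted p = 0.00428) and Mdm2 by 1.29 ± 0.35 (edgeR adjusted p = 0.0375). The calls of Ccng1 and Zmat3 were kept in all 21 fits without 1 library, while that of Mdm2 was lost in 6, with edgeR adjusted p up to 0.159. The 6 fits left out 2i+LIF PO replicate 3, 2i+LIF HP replicate 1 or 3, or any 1 of the LIF HP replicates. Library measures separated the groups too. LIF HP had 3.48 to 9.35% mitochondrial counts, 8.46 to 16.7% of entries outside genes and 0.549 to 0.683% ambiguous ones, against 1.25 to 3.05%, 17.2 to 21.5% and 0.342 to 0.435% in 2i+LIF HP, and their part in the calls was not tested. Every LIF HP library lay above every 2i+LIF HP library for 6 of the 10 genes, where this held for 14.6% of all tested genes. The other 3 were Cdkn1a at 0.69 (edgeR adjusted p = 0.286), Trp53inp1 at 1.13 (0.0645) and Bbc3 at 2.40 (0.138), which did not pass.

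LIF HP against CH+LIF HP gave another 3 calls, again all higher in LIF HP, where 1.47% of all genes were called and 0.592% were called higher. Phlda3 was higher by 2.31 ± 0.48 (edgeR adjusted p = 0.0137) and Cdkn1a by 2.07 ± 0.37 (edgeR adjusted p = 0.00394). Ccng1 was higher by 1.63 ± 0.37 (edgeR adjusted p = 0.0232). For 7 of the 10 genes all LIF HP libraries lay above all CH+LIF HP libraries, as they did for 15.3% of all tested genes. Summed neural progenitor markers were at 88.1 CPM or more in LIF HP and at 57.7 to 60.2 CPM in CH+LIF HP, and fibroblast markers at 9.85 to 11.3 and 14.3 to 24.4 CPM, with no overlap in either sum. Of the tested genes, 3 of 4 neural progenitor markers and 1 of 2 fibroblast markers had a positive log2 fold change, and 0 were called. Thy1 had the highest mean of the fibroblast list over all libraries. Ambiguous entries were 0.549 to 0.683% and 0.340 to 0.434%, and entries that did not align uniquely 30.3 to 35.4% and 25.6 to 28.3%, also with no overlap. The part of these measures was not tested. Mdm2, at 1.30 ± 0.35, did not pass (edgeR adjusted p = 0.0595). Trp53 had the opposite sign, at -1.48 ± 0.62 (edgeR adjusted p = 0.26), with no overlap. Without CH+LIF HP replicate 3 the Cdkn1a value was 1.87 (edgeR adjusted p = 0.0513). The calls of Ccng1 and Phlda3 were lost in 5 and 4 of the 21 fits without 1 library, each time with a library of these 2 groups left out (edgeR adjusted p up to 0.21 and 0.111).

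CH+LIF HP against 2i+LIF HP gave 2 calls in opposite directions, where 2.02% of all genes were called. Ccng1 was higher in CH+LIF HP by 2.15 ± 0.41 (edgeR adjusted p = 0.00347), and Cdkn1a stood at -1.38 ± 0.36 (edgeR adjusted p = 0.0426). Neither gene's libraries overlapped between the groups. The Cdkn1a call was lost in 15 of the 21 fits without 1 library, with log2 fold changes from -1.63 to -1.20 over all alternatives and an edgeR adjusted p up to 0.252. The Ccng1 call was kept in all 21. Mitochondrial genes took 3.62, 5.18 and 9.84% of counts in CH+LIF HP and 3.05, 2.30 and 1.25% in 2i+LIF HP, with no overlap, and their part in these calls was not tested. The ratio of Ccng1 to Cdkn1a CPM, computed after these values were seen, was 0.0303 to 0.0528 in 2i+LIF HP, 0.368 to 0.758 in CH+LIF HP and 0.230 to 0.576 in LIF HP.

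Between LP and HP, 6 of 30 member tests passed over the 3 media, where 4.55% of all gene tests did. In 2i+LIF, 4 of 10 members were called and all were lower at HP, where 3.67% of all genes were called and 2.05% were called lower. Ccng1 fell by 2.81 ± 0.41 on the log2 scale (edgeR adjusted p = 0.000212) and Zmat3 by 2.49 ± 0.37 (edgeR adjusted p = 0.000311). Trp53inp1 fell by 1.81 ± 0.35 (edgeR adjusted p = 0.00296), a call kept in all 21 fits without 1 library but not in a fit of these 2 groups alone (edgeR adjusted p = 0.101). The fall of Trp53, 2.10 ± 0.59 (edgeR adjusted p = 0.0444), was lost in 9 fits without 1 library. Without 2i+LIF LP replicate 1 it was -0.86 (edgeR adjusted p = 0.469). Cdkn1a did not pass, at 0.27 ± 0.36 (edgeR adjusted p = 0.763), nor did Bax at -1.81 (0.0815) or Mdm2 at -0.78 (0.246). All HP libraries lay below all LP libraries for 4 of the 10 genes, Mdm2, Ccng1, Trp53inp1 and Zmat3, as they did for 8.41% of tested genes. The median log2 fold change of the 10 genes was -1.58, and that of all tested genes 0.01. Neural progenitor markers moved beside these genes. Their summed level was 110 to 253 CPM in 2i+LIF LP and 35.5 and 65.4 CPM in replicates 3 and 2 of 2i+LIF HP, with replicate 1 inside the LP range, and Sox1 was called lower (edgeR adjusted p = 0.0220), with 1, 32 and 31 counts at LP and 0, 3 and 0 at HP. Their part in the result was not tested.

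In CH+LIF no member passed between HP and LP in edgeR, where 0.00940% of all genes did, a single gene. Yet 7 of the 10 members had every HP library below every LP library, against 7.13% of all tested genes, and 6 had an unadjusted p under 0.05, against 5.37%. The nearest to the threshold were Zmat3, at -1.92 ± 0.35 (edgeR adjusted p = 0.0548), and Trp53inp1, at -1.58 ± 0.34 (edgeR adjusted p = 0.205). Without the 2 libraries that stood apart, neither of them from these groups, the same genes had -1.91 (edgeR adjusted p = 0.00804) and -1.57 (edgeR adjusted p = 0.0333), so the fold changes hardly moved while the calls did. The median over the 10 genes was -1.20. Summed neural progenitor markers were 125, 138 and 133 CPM at LP and 59.7, 57.7 and 60.2 CPM at HP, and pluripotency markers 1420 to 1600 CPM at LP and 1630 to 1870 CPM at HP, with no overlap in either list. All 7 pluripotency markers had a positive log2 fold change, and 0 were called in edgeR. Of the 4 neural progenitor markers tested, 2 had a positive log2 fold change and 0 were called in edgeR, so the list did not move as a whole. Tubb3 had the highest mean of that list over all libraries. The part of both lists in these values was not tested. Trp53 stood at -0.04 ± 0.58 (edgeR adjusted p = 1).

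In LIF, 2 of 10 members were called between HP and LP, in opposite directions, where 9.96% of all genes were called. Cdkn1a rose by 1.50 ± 0.36 (edgeR adjusted p = 0.0105) and Zmat3 fell by 1.10 ± 0.34 (edgeR adjusted p = 0.0409). The rise of Cdkn1a was lost without LIF LP replicate 1 (1.46, edgeR adjusted p = 0.0560) or replicate 2 (1.45, edgeR adjusted p = 0.0574). The fall of Zmat3 was lost in 6 of 21 fits without 1 library, at -0.85 (edgeR adjusted p = 0.213) without LIF LP replicate 1. Trp53, at -1.69 ± 0.62, did not pass (edgeR adjusted p = 0.0782), though all HP libraries lay below all LP libraries. Without the 2 libraries that stood apart it was -1.70 (edgeR adjusted p = 0.00768). Ccng1 stood at 0.33 ± 0.36 (edgeR adjusted p = 0.605) and the median of the 10 genes at -0.19. Summed neural progenitor markers were 189 to 208 CPM in LIF LP, and 88.1 and 99.9 CPM in replicates 2 and 3 of LIF HP, with replicate 1 in between, so the groups did not overlap. Sox1 was called lower, by 2.82 on the log2 scale (edgeR adjusted p = 0.0154). Fibroblast markers summed to 12.6 to 45.7 CPM at LP and 9.85 to 11.3 CPM at HP, also with no overlap. Entries that did not align uniquely were 23.1 to 25.6% in LIF LP and 30.3 to 35.4% in LIF HP, ambiguous ones 0.303 to 0.384% and 0.549 to 0.683%, and those outside genes 17.0 to 24.6% and 8.46 to 16.7%. The part of these measures in the result was not tested.

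The difference between media in the HP against LP change was tested directly for all genes, and 2 of 30 member tests passed, where 0.197% of all gene tests did. For LIF less 2i+LIF, Ccng1 was called, at 3.15 ± 0.54 (edgeR adjusted p = 0.00706), where 0.150% of all genes were called, and the call was kept in all 21 fits without 1 library. For LIF less CH+LIF, Cdkn1a was called, at 2.61 ± 0.51 (edgeR adjusted p = 0.0210), where 0.423% of all genes were called. That call was lost in 9 of 21 fits, each without a library of the 4 groups it uses, with edgeR adjusted p up to 0.109. For CH+LIF less 2i+LIF no member was called in edgeR, where 0.0188% of all genes were, and 4 members had an unadjusted p under 0.05, as 6.49% of all genes did. Zmat3 fell in 2i+LIF and in LIF, and its difference between those media was 1.38 ± 0.50 (edgeR adjusted p = 0.271).

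Against 2i+LIF PO, 13 of 60 member tests passed, where 9.00% of all gene tests did. All 6 comparisons share the same 3 PO libraries, and their run differs. 2i+LIF HP had 6 of the calls, all lower, where 10.6% of all genes were called and 4.79% called lower: Ccng1 (-3.20), Bbc3 (-3.40), Zmat3 (-2.05), Trp53 (-1.87), Trp53inp1 (-1.54) and Mdm2 (-1.40). In the same comparison 4 of 7 pluripotency markers, Nanog, Zfp42, Esrrb and Tfcp2l1, were called lower, and the sum of the 7 was 2610 to 3230 CPM in PO and 1270 to 1890 CPM in 2i+LIF HP. That sum did not overlap PO in CH+LIF LP, LIF LP, CH+LIF HP or LIF HP either (1420 to 2080 CPM). In 2i+LIF LP it did, through replicate 1, a library that stood apart (3050 CPM), while replicates 2 and 3 had 1610 and 1680 CPM. The same 4 markers were called lower in CH+LIF LP and LIF LP. Nanog and Zfp42 were called lower in 2i+LIF LP, and Tfcp2l1 in CH+LIF HP. In LIF HP Zfp42 and Tfcp2l1 were called lower, but Pou5f1 higher. Summed neural progenitor markers, 36.9 to 72.4 CPM in PO, were higher with no overlap in the 3 LP groups (110 CPM or more) and LIF HP, and in LIF LP (189 to 208 CPM) Pax6, Sox1 and Tubb3 were called higher. Pax6 and Tubb3 were also called higher in 2i+LIF LP, and Pax6 in 2i+LIF HP. Fibroblast markers, 15.9 to 22.4 CPM in PO, were below that range in LIF HP. Mitochondrial genes took 7.55, 7.83 and 39.1% of counts in PO and less than any of these in 2i+LIF HP (1.25 to 3.05%), 2i+LIF LP (0.210 to 4.61%) and CH+LIF LP (1.97 to 4.84%). Ambiguous and not uniquely aligned entries were higher in LIF HP than in PO, with no overlap, and every PO library had more gene counts than any other library. The part of these markers and library measures in the calls was not tested. CH+LIF HP had 3, all lower, where 5.82% were called and 2.45% called lower, namely Cdkn1a (-1.90), Mdm2 (-1.40) and Trp53inp1 (-1.34). LIF HP had 2, where 12.3% were called, with Trp53 at -2.97 ± 0.63 (edgeR adjusted p = 0.00412) and Phlda3 at 1.57 (edgeR adjusted p = 0.0254). The Phlda3 value was 1.12 (edgeR adjusted p = 0.104) without 2i+LIF PO replicate 1, 1.55 (0.0533) without LIF HP replicate 1 and 1.19 (0.172) without LIF HP replicate 2. LIF LP had 1, Cdkn1a at -1.33 (edgeR adjusted p = 0.0168), where 12.0% were called. 2i+LIF LP had 1, Bax at 2.80 (edgeR adjusted p = 0.00922), where 5.06% were called, which without replicate 1 of that group came to 1.14 (edgeR adjusted p = 0.123). The calls of Ccng1, Trp53inp1 and Zmat3 in 2i+LIF HP, of Cdkn1a in CH+LIF HP and of Trp53 in LIF HP were kept in all 21 fits without 1 library, and each of the others was lost in 1 or more. CH+LIF LP had none in edgeR, where 8.31% were called, with 5 members at an unadjusted p under 0.05, as were 24.0% of all genes.

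Of 38 other p53 targets, taken from a list chosen with earlier results of these data known, 32 passed the filter, and 8 of these differed among the 6 LP and HP groups in edgeR's joint test, as 13.1% of all genes did. In LIF HP against 2i+LIF HP, 6 of the 32 were called higher and 0 lower, beside 2.10% of all genes called higher. Eda2r, a death receptor of the TNF receptor family on the X chromosome (97333840 to 97377216), was higher by 4.59 ± 0.66 (edgeR adjusted p = 0.000203). It had 1, 1 and 2 counts in 2i+LIF HP (0.465, 0.545 and 1.92 CPM), and 21.1, 22.8 and 19.6 CPM in LIF HP. Perp, a membrane protein of desmosomes and effector of p53-driven apoptosis, had 0.930, 3.82 and 4.79 CPM against 13.4, 29.6 and 17.5 CPM, a difference of 2.75 ± 0.58 (edgeR adjusted p = 0.00761). Pidd1, which activates caspase-2, had 4, 0 and 0 counts in 2i+LIF HP and differed by 3.07 ± 0.87 (edgeR adjusted p = 0.0449). Gdf15, a secreted stress cytokine, differed by 1.69 (edgeR adjusted p = 0.0318) and Rps27l by 2.28 (edgeR adjusted p = 0.0333). Rps27l has a close relative in Rps27, so its reads are less certain. Over the fits without 1 library, the call of Eda2r was kept in all 21, and those of Perp, Rps27l, Gdf15 and Pidd1 were lost in 1, 5, 6 and 14. The Pidd1 value ran from 2.49 to 6.71 over all alternatives, with an edgeR adjusted p up to 0.159. The median of the 32 was 0.67, and that of all tested genes -0.02. CH+LIF HP against 2i+LIF HP gave 1 call among the 32, Eda2r, higher by 2.73 (edgeR adjusted p = 0.0416). That call was lost with a replicate block and in 9 of 21 fits without 1 library, with values from 1.69 to 3.39 and an edgeR adjusted p up to 0.521. LIF HP against CH+LIF HP gave 0 in edgeR, with 6 of the 32 at an unadjusted p under 0.05, as were 14.7% of all genes.

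From LP to HP in 2i+LIF, 4 of the 32 other targets fell and 0 rose, beside 2.05% of all genes called lower. Eda2r fell by 4.27 ± 0.66 (edgeR adjusted p = 0.000471), Pidd1 by 3.12 ± 0.86 (edgeR adjusted p = 0.0383) and Perp by 2.43 ± 0.58 (edgeR adjusted p = 0.0168). The remaining one was Sesn2, at -1.19 (edgeR adjusted p = 0.0414). Sesn2, and below Triap1, Tigar, Ep300, Mdm4, Crebbp and Gtse1, are named after their values were seen, to complete short lists of calls. Eda2r again was kept in all 21 fits without 1 library, while Pidd1, Perp and Sesn2 were lost in 5, 3 and 10 of them, and each also in a fit of these 2 groups alone. The Pidd1 value ran from -6.76 without 2i+LIF HP replicate 1 to -2.54 without replicate 2, and its call was also lost without the 2 libraries that stood apart. The median of the 32 was -0.57. In LIF 4 rose, Ninj1 (2.00), Rps27l (1.99), Triap1 (1.61) and Tigar (1.13), and 1 fell, Fbxo22 (-1.37), beside 9.96% of all genes called. Without 1 library these calls were lost in 7, 4, 7, 8 and 6 of 21 fits, in that order, and that of Tigar also without the filter on low counts. In CH+LIF 0 of 32 were called in edgeR, 8 had a positive log2 fold change, 6 had an unadjusted p under 0.05, as 5.37% of all genes did, and the median was -0.55. Against 2i+LIF PO, 2 of the 32 were called higher and 7 lower in 2i+LIF HP, beside 10.6% of all genes called and 4.79% called lower. Calls higher and lower were 1 and 3 in CH+LIF HP (5.82% of all genes called) and 2 and 1 in LIF HP (12.3%). They were 1 and 1 in 2i+LIF LP (5.06%), 2 and 0 in CH+LIF LP (8.31%) and 2 and 3 in LIF LP (12.0%). Gdf15 was called higher in all 6 comparisons, by 1.38 (2i+LIF HP) to 3.07 (LIF HP), and Gtse1, a microtubule-associated protein that binds p53, lower in 5, at -2.55 (2i+LIF HP) to -1.76 (LIF LP). Both Gdf15 calls in 2i+LIF were lost in fits without 1 library, 17 at HP and 2 at LP, and its other 4 calls were kept in all 21. The long noncoding RNA Trp53cor1, known as lincRNA-p21 and transcribed near Cdkn1a, was called in the joint test (edgeR adjusted p = 0.0275). It had 16.3, 8.18 and 16.3 CPM in 2i+LIF HP. Among the other LP and HP libraries it stood at 14.7 CPM in 2i+LIF LP replicate 1 and at 3.91 CPM or less in the rest.

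**Figure D3:**
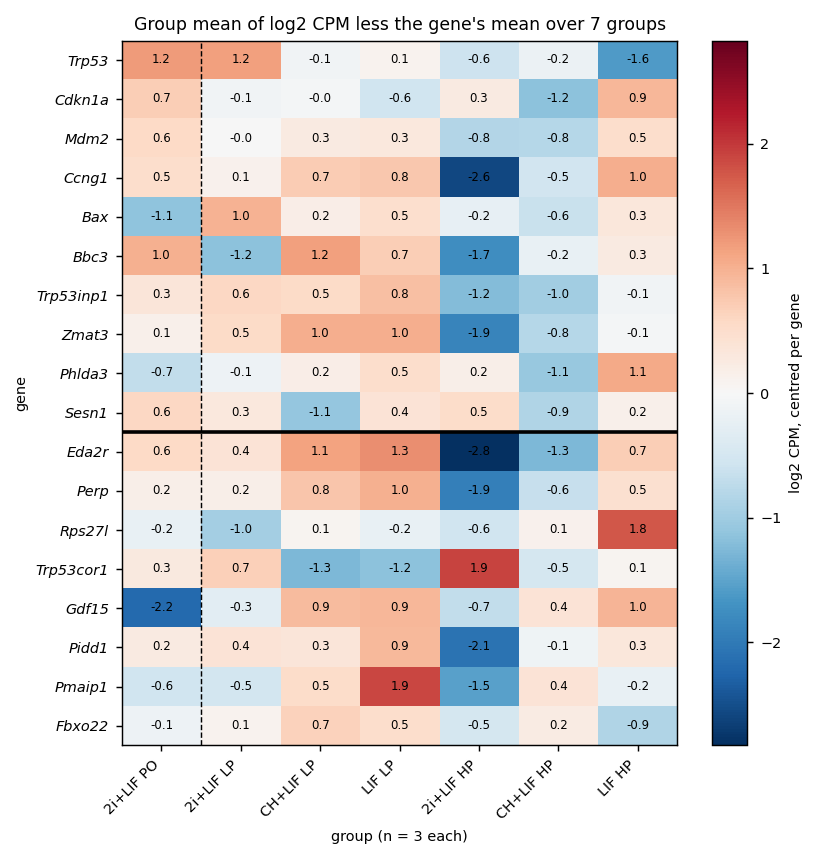
Group means of log2 CPM less the gene's mean over the 7 groups, with groups on the horizontal axis and genes on the vertical axis; the solid line parts the 10 genes from other genes of the lists, and the dashed line parts 2i+LIF PO from the rest. The 2i+LIF HP values of Ccng1, Zmat3 and Eda2r are the lowest of their rows (-2.58, -1.87 and -2.82), and that of Cdkn1a is 0.25.

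Of 23 tested regulators and partners of p53, 4 were called in LIF HP against LIF LP, beside 9.96% of all genes, and 0 in edgeR in the other comparisons among LP and HP groups, with 0 to 7 at an unadjusted p under 0.05. The 7 were in 2i+LIF HP against 2i+LIF LP. The share of all genes at that threshold was not taken for it, so this count cannot be read as high or low. Cdkn2a, whose locus encodes the Mdm2 inhibitor Arf as well as p16, rose by 2.28 ± 0.53 (edgeR adjusted p = 0.00791). It had 16.5, 7.97 and 23.6 CPM in LIF LP and 57.7, 107 and 73.2 CPM in LIF HP, with no overlap. The counts do not separate its 2 products. The call was lost without LIF LP replicate 2, at an edgeR adjusted p of 0.0572. Usp7, a deubiquitinase of Mdm2 and p53, fell by 1.36, Sirt1, a deacetylase of p53, by 1.34 and Ep300, an acetyltransferase and coactivator, by 1.11 (edgeR adjusted p from 0.0139 to 0.0233). These calls were lost in 4, 2 and 4 of 21 fits without 1 library, in that order, and that of Ep300 also without the filter on low counts. Against 2i+LIF PO, Mdm4, the Mdm2 relative that restrains p53, was called lower in 2i+LIF HP (-1.81), CH+LIF HP (-1.63) and LIF HP (-1.49), and Usp7 (-1.34) and Crebbp (-1.67), a paralog of Ep300, in LIF HP. That is 1, 1 and 3 of 23 genes, beside 10.6%, 5.82% and 12.3% of all genes. All 5 calls were lost in fits of the 2 groups alone and without 2i+LIF PO replicate 1, where Mdm4 stood at -1.05 in CH+LIF HP (edgeR adjusted p = 0.14) and -0.93 in LIF HP (0.197), and Crebbp had an edgeR adjusted p of 0.402.

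Of 15 cell cycle genes known to be lowered through p53, p21 and the DREAM complex, 2 fell and 0 rose in LIF HP against LIF LP, where 9.96% of all genes were called and 4.63% called lower. Mki67, the gene of the proliferation antigen Ki-67, fell by 2.26 ± 0.37 (edgeR adjusted p = 0.000434). It had 332, 313 and 232 CPM in LIF LP and 76.8, 33.3 and 73.2 CPM in LIF HP. Top2a, topoisomerase II alpha, fell by 1.40 ± 0.32 (edgeR adjusted p = 0.00791). The median of the 15 was -0.60, and 3 of them had a positive log2 fold change. Mki67 in LIF HP was also lower against 2i+LIF HP, at -1.55 (edgeR adjusted p = 0.0166), and against CH+LIF HP, at -1.65 (edgeR adjusted p = 0.0186). It was the only one of the 15 called in either, where 3.78% and 1.47% of all genes were. Those calls were lost in 2 and 4 of 21 fits without 1 library, each time a library of the groups compared, with edgeR adjusted p up to 0.12 and 0.152. LIF HP was also the group with the highest mean of Cdkn1a, and a link between these values was not tested. In 2i+LIF from LP to HP, E2f1 rose by 1.55 ± 0.36 (edgeR adjusted p = 0.0145), the only one of the 15 called, where 3.67% of all genes were. That call was lost in a fit of these 2 groups alone (edgeR adjusted p = 0.252) and without 2i+LIF HP replicate 3. Against 2i+LIF PO, Mki67 alone of the 15 was called in 2i+LIF LP and in CH+LIF LP, higher in both, beside 5.06% and 8.31% of all genes. In LIF LP Mki67 and Top2a were called higher (12.0% of all genes called), and in 2i+LIF HP Mybl2 was called lower (10.6%). In CH+LIF HP and LIF HP 0 of 15 were called (5.82% and 12.3%). Of 9 tested BCL2 family genes, 1 was called in LIF HP against LIF LP, where 9.96% of all genes were, namely Bid, at 1.59 (edgeR adjusted p = 0.0203). The call was lost without LIF LP replicate 1 or 2 or LIF HP replicate 2 or 3, with an edgeR adjusted p up to 0.102. Its annotation overlaps Bcl2l13. Against 2i+LIF PO, Bad was called higher in 2i+LIF HP (1.54) and LIF HP (2.57), Bik higher in LIF LP (3.03) and LIF HP (3.17), Bok higher in CH+LIF LP (2.51) and Bid lower in LIF LP (-2.25). That is 1 or 2 of 9 genes in a comparison, beside 10.6% (2i+LIF HP), 12.3% (LIF HP), 12.0% (LIF LP) and 8.31% (CH+LIF LP) of all genes called. Bad in LIF HP and Bid in LIF LP were kept in all 21 fits without 1 library. Bad in 2i+LIF HP was lost in 3, Bik in 11 (LIF LP) and 5 (LIF HP), and Bok in 8.

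Across the 21 libraries, the 45 pairs of the 10 genes had a median Pearson r of 0.21 in log2 CPM, 37 of them positive, against a median of 0.00 for pairs among 8316 genes. Within groups the median was 0.18. Across groups, without the 2 libraries that stood apart, it was 0.24. The libraries share groups and scaling, so these values are a description. Trp53inp1 and Zmat3 had the highest r (0.90), followed by Ccng1 with Zmat3 (0.83) and Ccng1 with Trp53inp1 (0.78). Within groups these pairs stood at 0.48, 0.35 and 0.62, and Cdkn1a with Mdm2 was highest, at 0.69. Cdkn1a went with Mdm2 (0.59), and hardly with Zmat3 (-0.08) or Ccng1 (0.12). Trp53 mRNA stood at -0.12 with Cdkn1a and at -0.48 with Phlda3. Without the libraries that stood apart these were -0.26 and -0.33, and within groups 0.03 and -0.25. Among 5723 genes with at least 20 CPM on average, those most like Trp53 were Parp1 (0.88), Helb (0.87) and Cdca7 (0.87). The nearest to Cdkn1a were Tfap2c (0.81), Rpp25 (0.76) and Osbpl7 (0.76), and the nearest to Mdm2 were Dhx16 (0.81), Isoc1 (0.80) and Ccdc25 (0.79). Without the libraries that stood apart these 9 values lay between 0.75 and 0.86.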

How the data were processed

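RNA of 21 libraries of E14Tg2a cells was sequenced as mRNA, per the labels' protocols, from 125 ng of total RNA. The authors deposited a table of raw counts for each library, with 31053 Ensembl IDs and 5 closing entries. The submitters' processing notes name bcl2fastq, STAR 2.6.0a, HTSeq and genome build mm10. The counting mode, strand setting and annotation release are not given in the sources used here. These closing entries were dropped before scaling and testing: 8.46 to 25.8% of all entries of a library lay outside genes, 0.179 to 0.683% were ambiguous and 20.8 to 35.4% did not align uniquely. Symbols, positions and exon lengths came from GENCODE M21 (GRCm38), which held 31011 of the IDs.

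Counts were tested as deposited with edgeR 4.0.16 in R 4.3.3. All 21 libraries entered 1 quasi-likelihood fit (14 residual degrees of freedom) with TMM scaling and the filterByExpr filter. The 15 contrasts, 3 interactions and 2 joint tests (two-sided) were each adjusted by Benjamini and Hochberg's method over all 10643 genes. A standard error is the absolute log2 fold change divided by the square root of F. Log2 CPM used a prior count of 2. Replicates differed by more than sampling noise (chi-square per degree of freedom of at least 4.82 in every pair). The members, gene lists and tests were chosen with earlier results of these data known. Named genes were the members, at most 2 rises and 2 falls per contrast and other list, the 6 lowest p of each list in the joint test over LP and HP groups, and the 3 genes most like Trp53, Cdkn1a and Mdm2. Alternatives were DESeq2 1.42.0, its size factors, no filter, only the groups compared, a replicate block, leaving out mitochondrial genes with Gm42418, the libraries that stood apart, or each library. The scripts were tested on simulated data.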

Additional observations from a re-analysis of the deposited data

Results flagged for a closer look

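The changes of 2 genes between LP and HP differed between media by a test of the difference itself. The change of Ccng1 was 3.15 ± 0.54 on the log2 scale greater in LIF than in 2i+LIF (edgeR adjusted p = 0.00706). Ccng1 stood lower at HP in 3 of 3 libraries of 2i+LIF, and its LP and HP libraries overlapped in LIF. The change of Cdkn1a was 2.61 ± 0.51 greater in LIF than in CH+LIF (edgeR adjusted p = 0.0210). All 3 HP libraries lay above the LP libraries in LIF, and all 3 lay below them in CH+LIF.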

How the results depend on the processing

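In edgeR, 29 member calls were made over 15 contrasts and 3 interactions. Of these, 19 were kept under every alternative other than leaving out 1 library, 12 in all fits without 1 library and 10 in both, and 0 reversed. Without the 2 libraries that stood apart, calls rose from 8 to 13 between media at HP, from 13 to 21 against PO and from 2 to 4 among the interactions. With only the groups compared in the fit, calls against PO dropped to 6 and interaction calls rose to 4. Without the filter on low counts, calls between media at LP rose from 0 to 3 and calls against PO to 20. DESeq2 gave 10 calls for HP against LP in place of 6. The cause was not tested. Leaving out 1 library gave 5 to 9 members in the joint test over 6 groups, 8 to 9 over 7 groups, 0 to 0 calls between media at LP, 4 to 11 between media at HP, 3 to 9 for HP against LP, 10 to 19 against PO and 1 to 2 interactions. The lowest counts came without CH+LIF HP replicate 3 or LIF HP replicate 2 between media at HP, and without LIF LP replicate 1 or replicate 2 for HP against LP. The highest counts against PO came without 2i+LIF LP replicate 1.

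Same-numbered replicates deviated together (all correlations over 0.1) in 1 of 15 contrasts, so numbers were not taken as pairs. With the replicate number as a block, 8 members passed the joint test over 6 groups and 9 that over 7 groups, and calls were 0 between media at LP, 9 between media at HP, 6 for HP against LP, 13 against PO and 2 interactions. Trp53 in 2i+LIF HP against LP was then -1.98 (edgeR adjusted p = 0.0502). At 1132126 to 3783043 counts per library, Bbc3 and Sesn1, with 466 and 322 counts in all, are the least precise. The joint test over 7 groups has no fit of fewer groups.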
